A study of Mus musculus with 24 samples.

Results

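The genes described here are the 207 mouse genes with a numbered Zfp name that had a mean of at least 5 FPKM (fragments scaled by transcript length and library depth) over all 24 libraries of the series. They come from 29759 genes in the deposited tables, of which 9182 reached the same mean and 367 carry a numbered Zfp name. The other 160 numbered genes comprise 153 under the mean and 7 that were left out by name (Zfp42, Zfp57, Zfp600, Zfp970, Zfp979, Zfp980 and Zfp988). The members were thus chosen by their mean FPKM over all fractions and both cell states, and their levels are given as a description. The last members inside the limit were Zfp592, Zfp236, Zfp113 and Zfp605 with means of 5.15, 5.08, 5.07 and 5.07 FPKM. The first genes outside it were Zfp651, Zfp948, Zfp51 and Zfp959 with 4.90, 4.86, 4.83 and 4.76 FPKM.

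RNA of E14 mouse embryonic stem cells was sequenced in 2 cell states. Epiblast-like cells (EpiLC) had been cultured to day 3 with 20 ng/ml activin A plus 12 ng/ml bFGF. The naive embryonic stem cells (nESC) were kept in N2B27 medium with LIF and both inhibitors of the 2i condition, PD0325901 against MEK and CHIR99021 against GSK3. From each state there are 3 libraries each of chromatin, nucleoplasm, cytoplasm and unfractionated (total) RNA, and all 8 groups come from 1 cell line. Since nothing in the labels says that the libraries of a group stem from separate cultures, p-values reflect only how these samples spread, which may be technical.

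The Zfp genes encode proteins with zinc fingers of the C2H2 type, short loops in which a pair of cysteines and a pair of histidines hold a zinc ion. Many also carry a KRAB domain, which binds the corepressor TRIM28 (KAP1) and through it the H3K9 methyltransferase SETDB1. In embryonic stem cells KRAB zinc finger proteins are known for silencing retroelements and for keeping imprints, and their genes often lie in clusters that arose by duplication. Other Zfp proteins have no KRAB domain and act as transcription factors, corepressor partners, RNA-binding proteins or ribosome factors.

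Of the 207 genes, 206 are annotated as protein coding and 1, Zfp640, as a transcribed processed pseudogene (GENCODE M21, GRCm38, the build of the files, also called mm10). A search of the translated coding sequences found a KRAB pattern in 116 proteins and none in 90. Zinc finger patterns per protein ran from 0 to 36 with a median of 10. A run of at least 5 members with starts less than 1000000 bases apart was counted as a cluster, and 80 members lay in 11 such clusters, 65 of them with the KRAB pattern. The clusters held 13 members on chromosome 4, 5 to 9 in each of 4 clusters on chromosome 7, 11 and 6 on chromosome 17, 7 on chromosome 13, 6 on chromosome 6 and 5 each on chromosomes 2 and 9.

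The zinc finger repeat is given here for members at both ends of the fraction results, since the same protein fold is written in different bases. Each line is 84 bases of coding sequence from GENCODE M21 on GRCm38, read 5′ to 3′ on the gene's strand, with the codons of the 2 cysteines and 2 histidines of 1 finger in capitals. Zfp942 (chr17:21929017-21929100, minus strand, exon 6 of 6) and Zfp987 (chr4:146124717-146124800, plus strand, exon 4 of 4) were among the highest in chromatin over cytoplasm. Zfp281 (chr1:136626057-136626140, plus strand, exon 2 of 2) was high in both nuclear fractions, and Zfp64 (chr2:168935368-168935451, minus strand, exon 5 of 6) and Zfp428 (chr7:24515444-24515527, plus strand, exon 3 of 3) were high in the cytoplasm.
Zfp942: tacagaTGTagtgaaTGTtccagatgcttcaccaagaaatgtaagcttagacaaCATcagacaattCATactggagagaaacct
Zfp987: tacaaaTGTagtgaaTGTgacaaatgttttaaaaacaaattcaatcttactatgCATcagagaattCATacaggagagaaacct
Zfp281: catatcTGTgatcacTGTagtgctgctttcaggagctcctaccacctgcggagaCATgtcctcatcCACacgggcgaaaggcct
Zfp64: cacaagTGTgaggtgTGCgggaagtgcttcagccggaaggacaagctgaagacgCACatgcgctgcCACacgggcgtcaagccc
Zfp428: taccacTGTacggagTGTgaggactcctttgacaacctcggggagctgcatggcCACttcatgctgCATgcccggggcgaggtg
The GC content of these stretches was 38.1% in Zfp942, 29.8% in Zfp987, 54.8% in Zfp281, 61.9% in Zfp64 and 60.7% in Zfp428.

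The FPKM values were made by the authors and are relative within a library, so a fold between fractions gives enrichment in one library over another and not a share of the molecules of a cell. As read from the steps between low values, 1 FPKM of a 2 kb transcript rested on 24.2 to 93.4 fragments. The median coefficient of variation of the 207 genes within a group was 20.8% in EpiLC chromatin, 16.1% in EpiLC cytoplasm, 17.9% in nESC chromatin and 14.4% in nESC cytoplasm, and 5.50% to 7.11% in the nucleoplasm and total groups. All 10 cytoplasm RNA markers were called lower in chromatin than in cytoplasm in both states, and of 9 tested nuclear RNA markers 9 were called higher in EpiLC and 8 in nESC. The markers set nucleoplasm apart from cytoplasm less clearly. There, 3 of the 9 nuclear markers were called higher in EpiLC and 4 in nESC. Of the 10 cytoplasm markers, 6 were called lower in nucleoplasm in EpiLC and 10 in nESC. Epiblast-like marker genes summed to 1123 to 1161 FPKM in EpiLC total RNA, against 31.8 to 33.2 FPKM in nESC total RNA. Naive marker genes summed to 24.7 to 27.1 FPKM in EpiLC and to 668 to 684 FPKM in nESC. The 207 genes together made up 0.941% to 1.62% of the FPKM sum of a chromatin library, 0.502% to 0.577% in nucleoplasm, 0.118% to 0.152% in cytoplasm and 0.415% to 0.436% in total RNA.

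Most expressed Zfp transcripts were more abundant in chromatin than in cytoplasm in both cell states. A gene was called at a fold of at least 2 and a Benjamini-Hochberg adjusted p under 0.05 in limma on log2(FPKM + 0.5), fitted on every gene with a mean of at least 1 FPKM in the state's table. In EpiLC, 132 of the 207 genes (63.8%) were called higher in chromatin than in cytoplasm, against 29.1% of all 12834 genes tested. Only 10 (4.83%) were called lower, against 28.4% of all genes. In nESC, 136 of 206 genes (66.0%) were called higher, against 31.8% of all 12592 genes tested, and 13 (6.31%) were called lower, against 29.7%. Zfp467 was under the mean of 1 FPKM in nESC and was not tested there. The median log2 fold of the members was 1.82 in EpiLC and 1.82 in nESC, against 0.00 and 0.04 over all genes tested. Among the 153 numbered Zfp genes under the mean of 5 FPKM, 58 of 107 tested (54.2%) were called higher in EpiLC and 50 of 101 (49.5%) in nESC. A high chromatin value helps a gene to reach the mean of 5 FPKM, so the counts are also given for members that reached 5 FPKM in other RNA. Of the 100 members with at least 5 FPKM in EpiLC cytoplasm, 31 (31.0%) were called higher and 10 lower (median 0.26), against 14% and 41.7% of all 8177 genes chosen in the same way (median -0.68). Of the 101 with at least 5 FPKM in nESC cytoplasm, 41 (40.6%) were called higher and 13 (12.9%) lower (median 0.58), against 16.2% and 42.8% of all 7997 such genes (median -0.71). The EpiLC share of higher calls in these members was near the 29.1% of all genes tested without that choice, and both shares were above those of genes chosen in the same way. Of members with at least 5 FPKM in total RNA, 116 of 183 (63.4%) were called higher in EpiLC, against 23.8% of all genes chosen in the same way, and 124 of 188 (66.0%) in nESC, against 26.6%.

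**Figure D1:**
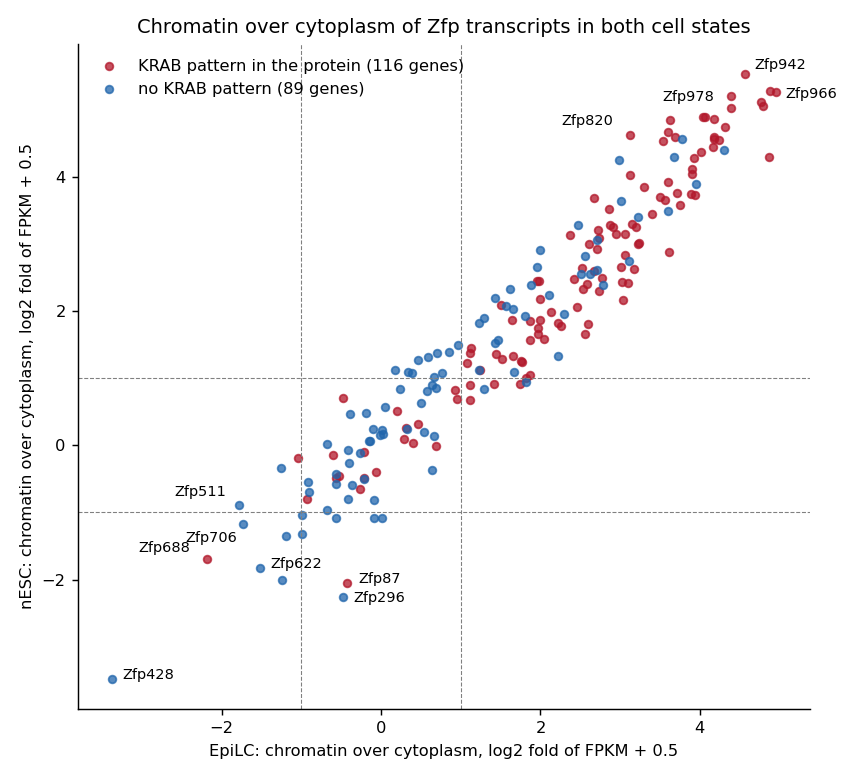
Log2 fold of chromatin over cytoplasm (FPKM + 0.5) in EpiLC (horizontal axis) and nESC (vertical axis) for 205 Zfp genes with a coding sequence, coloured by the KRAB pattern; dashed lines mark a 2-fold difference. Genes with the KRAB pattern crowd the upper right, and Zfp428 lies lowest in both states.

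Apart from the pseudogene Zfp640, the 10 members with the largest folds in each state all carried the KRAB pattern. Zfp942 (chromosome 17, 21926960 to 21962464, protein coding, 11 fingers, KRAB pattern) had 47.4, 21.9 and 19.2 FPKM in EpiLC chromatin, 7.51, 7.85 and 10.5 in EpiLC nucleoplasm and 0.591, 0.577 and 0.838 in EpiLC cytoplasm. In nESC it had 52.0, 59.4 and 51.5 FPKM in chromatin, 11.1, 10.9 and 12.0 in nucleoplasm and 0.768, 0.453 and 0.858 in cytoplasm. The 3 fractions did not overlap in either state, and the highest EpiLC chromatin library was more than 2-fold above the other two. The log2 fold of chromatin over cytoplasm was 4.57 ± 0.27 (SE, limma adjusted p = 5.99e-09, n = 3 per group) in EpiLC and 5.53 ± 0.12 (limma adjusted p = 4.56e-13) in nESC.

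Zfp987 (chromosome 4, 146097298 to 146126621, 14 fingers, KRAB pattern) had 167, 97.5 and 89.2 FPKM in EpiLC chromatin, 100.2, 128 and 140.1 in nucleoplasm and 4.02, 3.83 and 3.27 in cytoplasm. In nESC the values were 149, 212 and 246 in chromatin, 148, 143 and 159 in nucleoplasm and 5.01, 5.41 and 5.12 in cytoplasm. Both nuclear fractions stood far above the cytoplasm and overlapped each other in both states. Its log2 fold over cytoplasm was 4.76 ± 0.20 for EpiLC chromatin, 4.86 ± 0.20 for EpiLC nucleoplasm, 5.13 ± 0.14 for nESC chromatin and 4.73 ± 0.14 for nESC nucleoplasm (SE, limma adjusted p of 4.18e-10, 1.06e-08, 1.73e-12 and 3.32e-11, n = 3). The 10 highest folds of chromatin over cytoplasm in EpiLC ran from 4.32 (Zfp990) to 4.96 (Zfp966), and in nESC from 4.90 (Zfp936) to 5.53 (Zfp942). Zfp640, Zfp942, Zfp960, Zfp966, Zfp97, Zfp975, Zfp978 and Zfp987 were among the 10 highest in both states. Zfp978, at a mean of 109 FPKM over all libraries one of the most abundant members, had 136 ± 54.9 FPKM in EpiLC chromatin and 5.71 ± 0.760 in EpiLC cytoplasm (SD, n = 3), and 315 ± 63.7 and 9.05 ± 0.635 in the same fractions of nESC.

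Shares of calls for nucleoplasm against cytoplasm were near those for chromatin. The nucleoplasm folds followed GC content more closely, as given with base composition. In EpiLC, 118 of 207 genes (57.0%) were called higher in nucleoplasm and 14 (6.76%) lower, against 20.1% and 19.1% of all genes tested. In nESC, 114 of 206 (55.3%) were called higher and 13 (6.31%) lower, against 20.5% and 19.5%. The median log2 fold of the members was 1.43 in EpiLC and 1.23 in nESC, against -0.15 and -0.08 over all genes. Of the 100 members with at least 5 FPKM in EpiLC cytoplasm 25 (25.0%) were called higher and 14 lower (median -0.11), against 13.2% and 27.1% of all 8177 genes chosen in the same way (median -0.46). Of the 101 with at least 5 FPKM in nESC cytoplasm 29 (28.7%) were called higher and 13 (12.9%) lower (median 0.14), against 11.9% and 28.2% of all 7997 such genes (median -0.48). With the correction for length and GC content described with base composition, 76 members were called higher in EpiLC (36.7%, against 14.2% of all genes; median 0.54) and 75 in nESC (36.4%, against 15.6%; median 0.49). With every library scaled to one sum, 1 member was called lower in EpiLC (0.483%, against 1.71% of all genes) and none in nESC (against 1.02%). Zfp534, a chromosome 4 member, had 27.7, 32.5 and 37.3 FPKM in EpiLC nucleoplasm and 1.20, 0.814 and 0.934 in EpiLC cytoplasm, with no overlap (log2 fold 4.48 ± 0.21, SE, limma adjusted p = 1.12e-08, n = 3). Zfp808, with 22 fingers, had 20.7, 18.9 and 21.4 FPKM in nESC nucleoplasm and 0.797, 0.855 and 0.910 in nESC cytoplasm, again with no overlap (log2 fold 3.94 ± 0.14, limma adjusted p = 1.12e-10).

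Against cytoplasm, 115 genes in EpiLC (55.6%, against 16.2% of all genes) and 107 in nESC (51.9%, against 17.3%) were called higher both in chromatin and in nucleoplasm. Of the genes tested in both states, 104 members (50.5%, against 14.3% of all genes) were so in both. Chromatin alone was called over cytoplasm for 17 genes in EpiLC (8.21%, against 13% of all genes) and 29 in nESC (14.1%, against 14.5%). Nucleoplasm alone was called for 3 genes in EpiLC (1.45%, against 3.94%) and 7 in nESC (3.40%, against 3.15%). Cytoplasm was called over both nuclear fractions for 7 genes in EpiLC (3.38%, against 15.3%) and 8 in nESC (3.88%, against 16.5%). No call against cytoplasm was made for 55 genes in EpiLC (26.6%, against 34.9%) and 45 in nESC (21.8%, against 32.7%). The pattern was the same in both states for 168 genes (81.6%, against 69.2% of all genes). The 3 libraries of chromatin and of cytoplasm did not overlap for 183 members in EpiLC (88.4%, against 82.7% of all genes) and 185 in nESC (89.8%, against 85.9%). Nucleoplasm and cytoplasm did not overlap for 186 members in EpiLC (89.9%, against 81.2%) and 185 in nESC (89.8%, against 84.9%), shares near those of all genes.

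**Figure D2:**
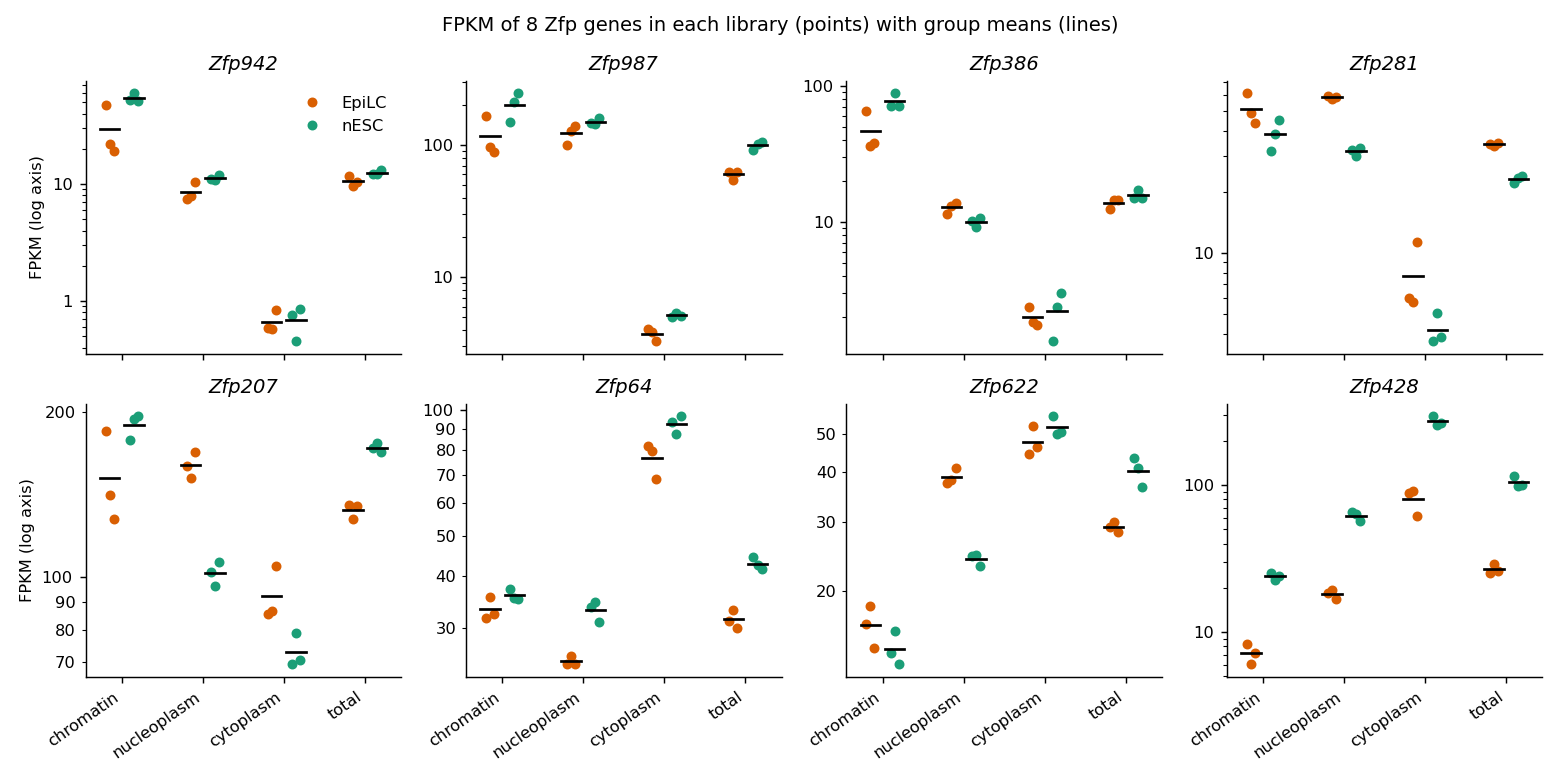
FPKM (log axis) of 8 Zfp genes in each of the 24 libraries, by fraction on the horizontal axis, with EpiLC left of nESC; points are libraries and lines are group means of 3. Zfp942, Zfp987, Zfp386 and Zfp281 are high in the nuclear fractions, Zfp64, Zfp622 and Zfp428 are highest in cytoplasm, and Zfp207 lies between.

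A smaller set of Zfp transcripts was more abundant in the cytoplasm. Zfp428 (chromosome 7, 24507006 to 24515682, 1 finger pattern, no KRAB pattern) had 8.25, 6.03 and 7.26 FPKM in EpiLC chromatin, 18.3, 19.4 and 16.7 in nucleoplasm and 88.1, 91.1 and 61.5 in cytoplasm. In nESC it had 25.3, 22.5 and 23.9 in chromatin, 65.2, 63.6 and 57.2 in nucleoplasm and 293, 258 and 263 in cytoplasm. Chromatin was lowest, nucleoplasm intermediate and cytoplasm highest in both states with no overlap. The log2 fold of chromatin over cytoplasm was -3.38 ± 0.15 in EpiLC and -3.48 ± 0.09 in nESC (SE, limma adjusted p = 5.90e-10 and 8.17e-13, n = 3). Zfp428 was the only member called lower in all 3 fraction comparisons in both states.

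Zfp622, a maturation factor of the large ribosomal subunit, had 16.5, 18.3 and 14.4 FPKM in EpiLC chromatin and 44.6, 52.4 and 46.5 in EpiLC cytoplasm, and its groups did not overlap (log2 fold -1.52 ± 0.10, SE, limma adjusted p = 1.57e-08, n = 3). In nESC its log2 fold was -1.83 (chromatin 14.3 ± 1.44 FPKM, cytoplasm 52.1 ± 2.94 FPKM, SD, n = 3, limma adjusted p = 3.34e-10). Zfp706, a small protein needed for the exit from self-renewal, had 9.14, 9.51 and 9.07 FPKM in EpiLC chromatin and 34.4, 31.7 and 29.9 in EpiLC cytoplasm (log2 fold -1.74 ± 0.08, limma adjusted p = 8.62e-10), and it was called lower in both nuclear fractions of both states. Zfp64 and Zfp688 were also called lower in both nuclear fractions of both states, as was Zfp637, with log2 folds of chromatin over cytoplasm of -1.19, -2.18 and -1.25 in EpiLC and -1.35, -1.69 and -2.01 in nESC. Zfp511 and Zfp740 were called lower in chromatin than in cytoplasm in EpiLC (-1.78 and -1.25). Libraries differ in FPKM sum, from 432706 in a chromatin to 1980223 in a cytoplasm library. With every library scaled to one sum the median over all genes tested moved by 1.69 on the log2 scale for chromatin over cytoplasm in EpiLC, and 192 members (92.8%) were then called higher and 1 (0.483%) lower, against 65.4% and 5.16% of all genes. Under that scaling Zfp64, Zfp467, Zfp511, Zfp566, Zfp622, Zfp637, Zfp706 and Zfp740 had log2 folds of chromatin over cytoplasm above 0 in EpiLC (0.02 to 0.72), as did Zfp64, Zfp219, Zfp512, Zfp622, Zfp623, Zfp688 and Zfp706 in nESC (0.10 to 0.90). Zfp428 kept its direction. More than 50% of the coding words of Zfp706 also occur in transcripts of other genes, so its level is uncertain.

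Members with the KRAB pattern had the higher median enrichment in chromatin. In EpiLC, 96 of 116 KRAB members were called higher in chromatin than in cytoplasm and 2 lower (median log2 fold 2.64), against 35 higher and 8 lower of 90 members without the pattern (median 0.58). In nESC the counts were 92 higher and 2 lower of 116 (median 2.47), against 43 higher and 11 lower of 89 (median 0.90). These counts describe the sets and were not tested against each other. The 2 KRAB members called lower in EpiLC were Zfp688 and Zfp566, and in nESC they were Zfp87 and Zfp688.

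The fold also varied with the base composition of the coding sequence. Across members the log2 fold of chromatin over cytoplasm had a Spearman's rho of -0.76 with the GC content of the coding sequence in EpiLC (n = 206 genes) and -0.72 in nESC (n = 205). Across all coding genes tested rho was -0.34 in EpiLC (n = 11800) and -0.37 in nESC (n = 11558), and genes of one set of libraries are not independent replicates. Of 102 members with a coding GC content under 45%, 95 were called higher in chromatin than in cytoplasm in EpiLC and 0 lower, against 36 higher and 10 lower of 104 members at 45% or more. In nESC the counts were 92 and 0 of 102, against 43 and 13 of 103. Over all genes of any GC content, 29.1% were called higher in EpiLC and 31.8% in nESC. The count of 0 stands against 28.4% lower calls over all genes of any GC content in EpiLC and 29.7% in nESC. Other coding genes of like GC content were called lower less often. In EpiLC these were 9 of 210 under 40% GC and 145 of 1214 between 40% and 45%. In nESC they were 15 of 218 and 141 of 1205. The median coding GC content of the members was 45.1%, against 53.2% of the other 11594 coding genes tested in EpiLC. Of members with a GC content under 40%, 43 of 44 (97.7%) were called higher in EpiLC, against 80% of 210 other coding genes in that range. Between 40% and 45% these were 52 of 58 members (89.7%), against 57.2% of 1214 other coding genes. Between 50% and 55% the shares were 27.6% of 29 members and 19.2% of 3165 other genes. For nucleoplasm over cytoplasm rho across members was -0.82 in EpiLC and -0.79 in nESC, against -0.52 and -0.50 across all coding genes. In EpiLC, 13.8%, 0% and 9.52% of members at 50% to 55%, 55% to 60% and 60% or more were called higher in nucleoplasm. Other coding genes had 12.4%, 5.11% and 3.08%. In nESC these shares were 13.8%, 9.09% and 5% of members, against 14.4%, 6.14% and 3.48%.

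**Figure D3:**
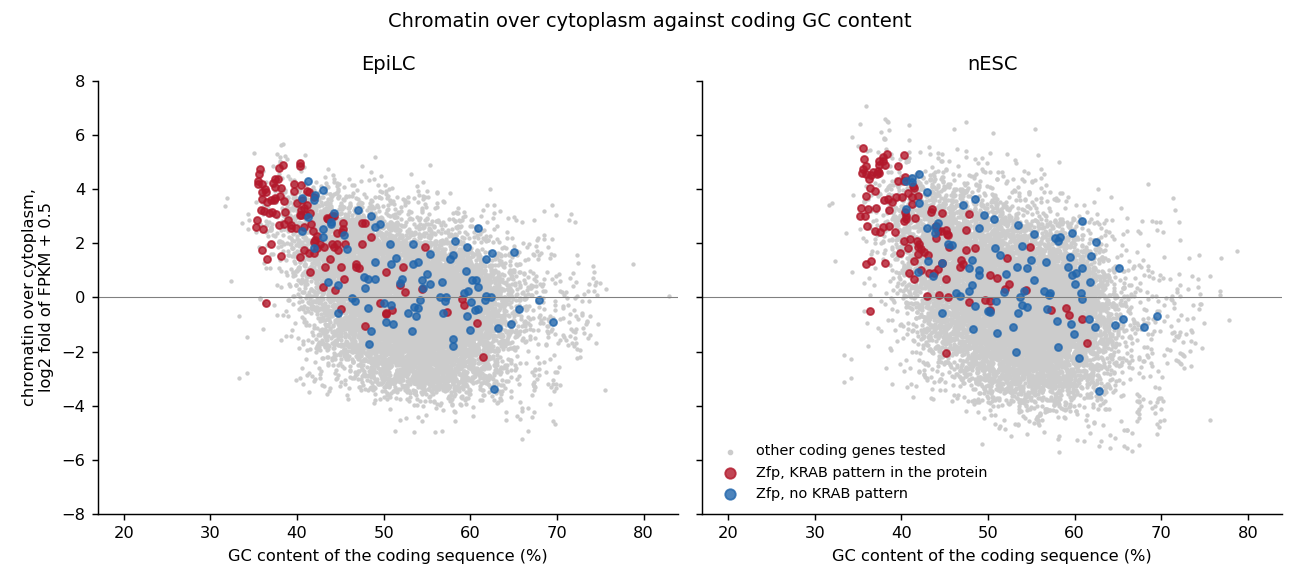
Log2 fold of chromatin over cytoplasm against the GC content of the coding sequence in EpiLC (left) and nESC (right), for other coding genes (grey), Zfp genes with the KRAB pattern (red) and without it (blue). Folds of the Zfp genes fall with rising GC content, with rho of -0.76 in EpiLC and -0.72 in nESC over the Zfp genes.

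The counts can be split by both features. Of 86 KRAB members under 45% GC, 82 were called higher in EpiLC and 0 lower (median log2 fold 3.06), against 14 higher and 2 lower of 30 KRAB members at 45% or more (median 0.81). Of 16 members without the pattern and under 45% GC, 13 were called higher and 0 lower (median 2.75), against 22 higher and 8 lower of 74 at 45% or more (median 0.28). Of all 12834 genes tested in EpiLC, 29.1% were called higher and 28.4% lower. The 22 higher calls of 74 were near that share of all genes. With the number of fingers Spearman's rho was 0.30 in EpiLC and 0.27 in nESC, and with the share of words common to other genes 0.45 and 0.41. The 7 members under 45% GC with no call in EpiLC were Zfp35, Zfp277, Zfp426, Zfp472, Zfp639, Zfp932 and Zfp949. A spline correction was made in every library for exonic length and for the GC content of the longest transcript, not of the coding sequence. It gave 100 members called higher (48.3%, against 23.2% of all genes) and 12 lower in EpiLC, and 99 higher (48.1%, against 25.8%) and 15 lower in nESC. The median log2 fold of the members was then 0.94 in EpiLC and 0.96 in nESC, against 1.82 without the correction in each state. This correction was chosen after the data were seen, and the part of base composition in the folds was not tested further.

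The genomic clusters differed widely among themselves. All 13 members of the chromosome 4 cluster (145510759 to 147809788) were called higher in chromatin than in cytoplasm in both states, with a median log2 fold of 3.91 in EpiLC and 4.38 in nESC. In the cluster on chromosome 2 (175372436 to 176719085) all 5 were called higher in both states (median 3.93 in EpiLC and 3.73 in nESC). In the larger cluster on chromosome 17 (21008903 to 23599487), 10 of 11 were called higher in both states (median 3.12 in EpiLC and 3.70 in nESC), and Zfp13, with -0.93 in EpiLC and -0.80 in nESC, was not called. The clusters on chromosome 6 (47920476 to 48623227) and on chromosome 7 from 127233061 had 0 of 6 members called higher and 1 lower each in EpiLC, with medians of -0.03 and -0.14. Of all genes, 29.1% were called higher and 28.4% lower in EpiLC, and 31.8% and 29.7% in nESC. The 1 lower call of 6 is thus not above the share of all genes.

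**Figure D4:**
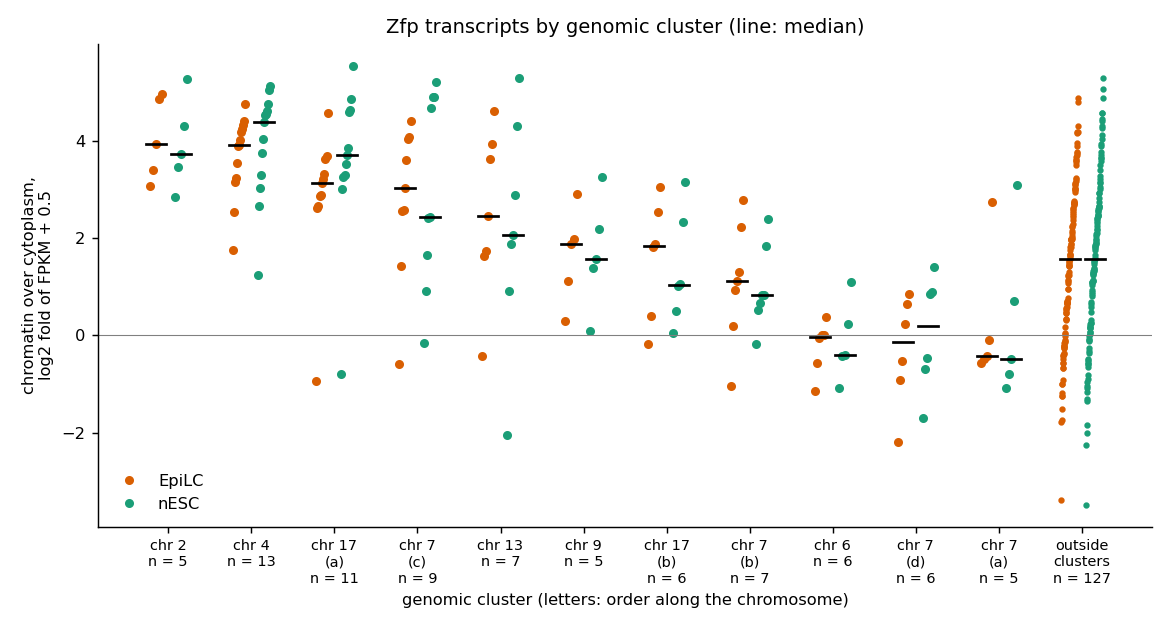
Log2 fold of chromatin over cytoplasm of each member (points) and the median (line) in the 11 genomic clusters, ordered by the EpiLC median, with EpiLC left of nESC, and for the 127 members outside clusters. Clusters on chromosomes 2, 4 and 17 (a) lie highest, and those on chromosomes 6 and 7 (d and a) lie lowest, with medians under 0 in EpiLC.

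Near-identical copies limit how these reads can be assigned. For each member the share of its coding 50-base words that also occur in transcripts of other genes was computed. It was 0 in 103 members, over 20% in 47, over 50% in 25 and 100% in 7. The chromosome 4 copies show it at one finger: the closest stretch in each copy to that of Zfp987 differed at 0 to 12 of 84 bases, with 0 in Zfp986, 1 in Zfp534 and Zfp989, 3 in Zfp990, 11 in Zfp978 and 12 in Zfp981. Capitals mark the bases that differ from Zfp987, shown in lower case for Zfp987 itself.
Zfp987: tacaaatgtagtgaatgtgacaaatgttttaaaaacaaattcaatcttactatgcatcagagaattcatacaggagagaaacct
Zfp986: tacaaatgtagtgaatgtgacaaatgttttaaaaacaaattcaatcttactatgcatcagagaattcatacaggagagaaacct
Zfp534: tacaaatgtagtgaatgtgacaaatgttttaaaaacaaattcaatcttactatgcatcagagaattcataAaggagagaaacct
Zfp990: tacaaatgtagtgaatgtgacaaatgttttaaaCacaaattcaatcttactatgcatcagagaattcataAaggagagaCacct
Zfp978: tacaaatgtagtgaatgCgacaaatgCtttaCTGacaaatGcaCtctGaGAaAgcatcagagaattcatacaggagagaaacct
Zfp981: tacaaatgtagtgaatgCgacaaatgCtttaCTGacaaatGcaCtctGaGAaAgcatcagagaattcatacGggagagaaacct
The Zfp987 stretch is chr4:146124717-146124800 and the Zfp981 stretch chr4:146537334-146537417 on GRCm38, both on the plus strand. Levels of Zfp965, Zfp966, Zfp968, Zfp969 and Zfp973 on chromosome 2, whose coding words are all shared, and of the chromosome 4 members are therefore uncertain between copies. Of 33 KRAB members with no shared word, 23 were called higher and 1 lower in EpiLC (median log2 fold 1.82) and 21 higher and 1 lower in nESC (median 1.38). The shares over all genes were 29.1% higher and 28.4% lower in EpiLC, and 31.8% and 29.7% in nESC.

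Chromatin and nucleoplasm differed less from each other. In EpiLC, 27 of 207 genes (13%) were called higher in chromatin than in nucleoplasm and 4 (1.93%) lower, against 16% and 16.7% of all genes. In nESC, 54 of 206 (26.2%) were called higher and 3 (1.46%) lower, against 17.4% and 17.3%. These shares of all genes include genes of lower level than the members. With only genes averaging at least 5 FPKM in the state's table, 12.7% of 197 members were called higher in EpiLC, against 9.19% of 9050 genes. In nESC these were 26% of 196 members, against 12.2% of 8990 genes. The EpiLC share of members was thus under that of all genes tested but above that of genes of like level. The libraries of the 2 nuclear fractions did not overlap for 106 members in EpiLC (51.2%, against 72.2% of all genes) and 147 in nESC (71.4%, against 77.4%). Zfp386, a KRAB member, had 65.0, 35.9 and 38.1 FPKM in EpiLC chromatin and 11.4, 13.0 and 13.9 in EpiLC nucleoplasm, and 71.5, 87.8 and 71.2 in nESC chromatin and 10.1, 9.17 and 10.6 in nESC nucleoplasm. Chromatin was higher in every library of both states (log2 fold 1.77 ± 0.19, limma adjusted p = 4.43e-06, in EpiLC and 2.88 ± 0.19, limma adjusted p = 1.77e-08, in nESC, SE, n = 3). Zfp672, without the KRAB pattern, had 22.5, 23.3 and 20.5 FPKM in EpiLC chromatin and 3.25, 4.28 and 3.41 in EpiLC nucleoplasm (log2 fold 2.45 ± 0.11, limma adjusted p = 3.92e-09). Zfp276 and Zfp326 were called higher in chromatin in both states, with log2 folds of 1.93 and 1.76 in EpiLC and 2.32 and 1.96 in nESC. Zfp326 encodes a DBIRD subunit, which acts where elongation and splicing meet. In the other direction, Zfp277, Zfp428, Zfp472 and Zfp622 were called lower in chromatin than in nucleoplasm in EpiLC (-1.18, -1.29, -1.18 and -1.23). Zfp87, Zfp296 and Zfp428 were called lower in nESC (-2.14, -1.27 and -1.36). With every library scaled to one sum, 110 members in EpiLC (53.1%, against 37.5% of all genes) and 125 in nESC (60.7%, against 38.6%) were called higher in chromatin. The median over all genes then moved to 0.69 in both states.

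Members with a known role are described by role. Of 17 members in the regulation of pluripotency and chromatin, 6 were called higher in chromatin than in cytoplasm and 1 lower in EpiLC, and 9 higher and 3 lower in nESC, where 29.1% of all genes were called higher and 28.4% lower in EpiLC and 31.8% higher and 29.7% lower in nESC. The EpiLC share of higher calls was near that of all genes. Zfp281, which works with TET1 and NuRD in the exit from the naive state, had 61.3, 49.2 and 43.9 FPKM in EpiLC chromatin, 59.3, 57.7 and 59.2 in nucleoplasm and 6.03, 5.72 and 11.3 in cytoplasm. In nESC it had 32.0, 38.6 and 45.2 in chromatin, 32.4, 30.0 and 33.0 in nucleoplasm and 3.67, 5.06 and 3.85 in cytoplasm. Both nuclear fractions were above the cytoplasm in every library (log2 fold of chromatin over cytoplasm 2.72 ± 0.20, limma adjusted p = 5.32e-08, in EpiLC and 3.06 ± 0.13, limma adjusted p = 8.03e-11, in nESC). Zfp292 and Zfp644, a partner of WIZ in the G9a and GLP complex, were called higher in both states (3.77 and 3.96 in EpiLC, 4.56 and 3.90 in nESC), as was Zfp462, which represses lineage genes with the same methyltransferases (1.47 in EpiLC and 1.57 in nESC). Zfp296, a pluripotency-associated factor, was called lower in nESC (-2.25 ± 0.13, limma adjusted p = 1.63e-09) and had -0.48 in EpiLC with no call.

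Of the 6 KRAB members listed for silencing of retroelements and imprints, 3 were called higher in chromatin than in cytoplasm in EpiLC, against 29.1% of all genes, and 2 in nESC, against 31.8%. None of the 6 was called lower in limma in either state, against 28.4% of all genes in EpiLC and 29.7% in nESC. The nESC share of higher calls was near that of all genes. Zfp809, which silences murine leukaemia virus, had 2.74 ± 0.16 in EpiLC and 2.30 ± 0.19 in nESC (SE of the log2 fold, limma adjusted p = 7.11e-09 and 8.25e-08). Zfp445, which keeps imprints, had 2.36 ± 0.17 in EpiLC and 3.13 ± 0.11 in nESC (limma adjusted p = 4.42e-08 and 1.80e-11). Zfp961 was called in EpiLC alone (1.11, with 0.90 in nESC). Zfp568, a repressor of the placental Igf2 promoter, Zfp819 and Zfp932 were not called in either state, with 0.19, -0.60 and -0.21 in EpiLC and 0.51, -0.15 and -0.49 in nESC.

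Of 12 members in RNA metabolism, ribosomes and protein turnover, 4 were called higher in chromatin than in cytoplasm and 1 lower in EpiLC, and 6 higher and 1 lower in nESC. The EpiLC share of higher calls was near the 29.1% of all genes, and in nESC 31.8% of all genes were called higher. The 4 higher in EpiLC were Zfp638, an RNA-binding nuclear protein (3.67 in EpiLC and 4.31 in nESC), Zfp326 (3.23 in EpiLC and 3.40 in nESC), Zfp91, a ubiquitin ligase (1.96 in EpiLC and 2.66 in nESC), and Zfp451, a SUMO ligase (1.81 in EpiLC and 1.92 in nESC). The correction for length and GC content turned the direction of Zfp451, to -0.60 in EpiLC and -0.76 in nESC. Zfp622 was the member called lower in both states. Zfp598, the ubiquitin ligase of collided ribosomes, had -0.41 in EpiLC and -0.08 in nESC and was not called. Zfp207 (BuGZ, a chaperone of the checkpoint protein BUB3), the most abundant member with a mean of 134 FPKM, had 185, 141 and 128 FPKM in EpiLC chromatin, 159, 152 and 169 in nucleoplasm and 85.6, 86.7 and 105 in cytoplasm, and was called in nESC alone (1.37 ± 0.07, limma adjusted p = 5.75e-10).

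Genes of the KRAB silencing pathway that are not Zfp genes were called in both directions. Of a list of 32 partners, 31 were in the tables, and 12 were called higher in chromatin than in cytoplasm and 9 lower in EpiLC, and 13 higher and 5 lower in nESC. Of all genes, 29.1% were called higher and 28.4% lower in EpiLC, and 31.8% higher and 29.7% lower in nESC. The list had a larger share of higher calls in both states and a smaller share of lower calls in nESC. These differences were not tested. The median log2 fold of the list was 0.39 in EpiLC and 0.50 in nESC. Trim28, the corepressor that KRAB domains bind, had -0.06 ± 0.11 in EpiLC and 0.05 ± 0.09 in nESC (SE, limma adjusted p = 0.591 and 0.648). Setdb1 had 0.19 in EpiLC and 0.95 in nESC, both under the 2-fold limit. Atrx and Mphosph8 were called higher in both states (3.75 and 2.97 in EpiLC, 5.37 and 3.22 in nESC), and Mbd3 lower (-2.38 in EpiLC and -1.69 in nESC).

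Few members differed between the states in their ratio of chromatin to cytoplasm. The test compared the log2 difference of chromatin and cytoplasm in EpiLC with that in nESC over 12 libraries, each centred on its median. It called 5 members higher (2.42%) and 4 lower (1.93%), against 6.12% and 4.85% of the 12998 genes tested. With every library scaled to one sum it called 2 higher and 10 lower (4.83%), against 4.52% and 8.07% of all genes, and with the correction for length and GC content 6 higher and 7 lower (3.38%), against 4.95% and 5.70%. The 5 members higher in EpiLC were Zfp296, Zfp87, Zfp775, Zfp346 and Zfp444. Zfp296 had a chromatin minus cytoplasm difference of -0.69 in EpiLC and -2.55 in nESC (difference 1.86 ± 0.22, SE, limma adjusted p = 1.29e-04). Its values were 9.69, 11.7 and 9.98 FPKM in EpiLC chromatin and 16.4, 15.1 and 13.0 in EpiLC cytoplasm, against 8.08, 6.33 and 5.52 in nESC chromatin and 30.0, 34.1 and 35.7 in nESC cytoplasm, so that nESC cytoplasm was the highest group and nESC chromatin the lowest. The 4 members lower in EpiLC were Zfp820, Zfp654, Zfp758 and Zfp28. Zfp820, of the larger chromosome 17 cluster, had a difference of 2.91 in EpiLC and 4.33 in nESC (difference -1.42 ± 0.28, SE, limma adjusted p = 0.00329). Zfp87, a KRAB member of the chromosome 13 cluster, had differences of -0.64 in EpiLC and -2.34 in nESC (difference 1.71 ± 0.35, limma adjusted p = 0.00424). With the EpiLC chromatin and cytoplasm libraries numbered 3 left out together, 11 members were called higher (5.31%) and 2 lower (0.966%), against 5.58% and 5.01% of all genes. That share of higher calls was near that of all genes. With single libraries left out the counts ran from 4 to 9 higher and from 1 to 10 lower. Without EpiLC chromatin 3 or EpiLC cytoplasm 3 there were 9 higher, and the lower calls were 10 without EpiLC chromatin 1, 2 without EpiLC chromatin 2, EpiLC cytoplasm 3, nESC chromatin 3 or nESC cytoplasm 3, and 1 without EpiLC cytoplasm 1 or nESC cytoplasm 1.

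Zfp levels in EpiLC and nESC are given without a test, since each state's table was normalized on its own. Markers of other cell types were present at different levels in total RNA of the states. The 6 primitive endoderm genes summed to 2.07 to 2.59 FPKM in EpiLC and 0.359 to 1.35 FPKM in nESC, and the 6 genes of the 2-cell-like state to 3.24 to 3.97 FPKM in EpiLC and 8.87 to 11.0 FPKM in nESC. The 5 trophectoderm genes summed to 15.04 to 15.52 FPKM in EpiLC and 25.4 to 26.6 FPKM in nESC, where Tfap2c averaged 0.360 ± 0.118 FPKM in EpiLC and 8.90 ± 0.245 in nESC (SD, n = 3). Cdx2 and Krt8 were also higher in nESC, while Eomes (1.69 FPKM in EpiLC and 0.507 in nESC) and Elf5 were higher in EpiLC. The 5 mesoderm and neural genes summed to 19.2 to 21.0 FPKM in EpiLC and 21.9 to 23.3 FPKM in nESC, where T averaged 0.209 ± 0.186 FPKM in EpiLC and 12.4 ± 0.861 in nESC. Mixl1, Sox1, Pax6 and Nes were higher in EpiLC, with Nes at 18.8 FPKM in EpiLC and 9.65 in nESC. The 6 fibroblast or feeder genes summed to 12.8 to 14.9 FPKM in EpiLC and 0.425 to 9.25 FPKM in nESC, with Thy1 at 7.32 ± 0.616 FPKM in EpiLC and 0.868 ± 0.645 in nESC and Lum at 0.0159 FPKM in EpiLC and 0.0221 in nESC. Dcn was also higher in EpiLC, while means of Col1a1, Col1a2 and Col3a1 were higher in nESC (Col1a2 at 0.399 ± 0.241 FPKM in EpiLC and 1.20 ± 1.34 in nESC). In each state, from 0 to 3 genes of a list averaged under 0.1 FPKM. The part of these markers in the level differences was not tested. In bulk samples, fewer cells of a type and less RNA per cell cannot be told apart. In total RNA, EpiLC exceeded nESC by 2-fold or more for 12 members (5.80%) and lay as far below it for 23 (11.1%), against 16.3% and 12.2% of all genes. With each library scaled to one sum the counts were 21 and 15. The median log2 difference was then 0.02 for members and 0.21 for all genes. Shares of all genes were not computed under that scaling. In chromatin without that scaling, 9 (4.35%) were higher and 15 (7.25%) lower, against 11.1% and 9.16% of all genes. In nucleoplasm, 15 (7.25%) were higher and 11 (5.31%) lower, against 13.4% and 11.8%. In cytoplasm, 10 (4.83%) were higher and 8 (3.86%) lower, against 12.8% and 10.3%. With each library scaled to one sum the counts were 11 and 15 in chromatin, 13 and 12 in nucleoplasm and 14 and 4 in cytoplasm. Without that scaling, no share of members was above that of all genes. In all 4 kinds of library, 5 members (2.42%) lay 2-fold or more above nESC in EpiLC and 4 (1.93%) below, against 6.11% and 5.22% of all genes, so these members are described one by one and not as a property of the set.

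The 5 were Zfp467, Zfp462, Zfp142, Zfp664 and Zfp652. Zfp467 (chromosome 6, no KRAB pattern) had 12.3, 11.4 and 11.3 FPKM in EpiLC total RNA and 0.462, 0.289 and 0.379 in nESC total RNA, a log2 difference of 3.79. Zfp462 (33 fingers) had 54.2, 47.2 and 53.9 FPKM in EpiLC and 3.11, 2.58 and 5.78 in nESC (log2 difference 3.60), and Zfp142 (36 fingers) had 10.2, 10.1 and 10.3 FPKM in EpiLC and 2.06, 2.07 and 2.60 in nESC (log2 difference 1.96). None of the libraries of the 2 states overlapped for these genes. Zfp281 had 34.4 ± 0.570 FPKM in EpiLC and 23.2 ± 0.848 in nESC total RNA (SD, n = 3).

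The 4 lower in every kind of library in EpiLC were Zfp229, Zfp59, Zfp977 and Zfp428. Zfp229 (chromosome 17, 21730795 to 21769342, KRAB, 16 fingers) had 6.70, 7.05 and 7.85 FPKM in EpiLC total RNA and 53.5, 59.4 and 59.6 in nESC total RNA, a log2 difference of -2.91. Zfp59 (chromosome 7, 27838607 to 27856438, KRAB, 16 fingers) had 5.67, 5.93 and 5.83 FPKM in EpiLC and 46.7, 46.8 and 45.4 in nESC (log2 difference -2.89). Zfp428 had 25.4, 28.9 and 25.9 FPKM in EpiLC and 115, 97.9 and 100.1 in nESC (log2 difference -1.95). Zfp773 had log2 differences of -2.32 in total RNA, -1.42 in nucleoplasm and -0.84 in chromatin. Groups of 3 did not overlap in total RNA for any of these 5 genes.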

How the data were processed

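RNA was made from chromatin, nucleoplasm and cytoplasm fractions (sucrose fractionation) and from whole cells, depleted of ribosomal RNA and sequenced from stranded libraries, per the labels' protocols. The authors aligned reads with TopHat2 and deposited FPKM values from Cuffnorm on mm10 (GRCm38), 1 table per cell state, per the submitters' processing notes. For versions, annotation and use of strand the sources used here give nothing. A mean of at least 5 FPKM over 24 libraries chose the members, and the members and gene lists were chosen with earlier results of these data known.

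From the deposited FPKM, log2(FPKM + 0.5) was tested in limma 3.58.1 (R 4.3.3, moderated with a trend, two-sided) on genes averaging at least 1 FPKM in the table, with the 4 kinds of library of a state fitted together. Folds on this scale understate changes of low genes. Calls needed a Benjamini-Hochberg adjusted p under 0.05 over all genes tested and a fold of at least 2. The state difference was an interaction over 12 chromatin and cytoplasm libraries. The scripts were tested on simulated data. Between 82.7% and 93.0% of low values were whole multiples of 1 fragment within 10%, which gave the relative depth. Members were named if among the 10 largest called folds per direction with groups that did not overlap, if called in the state difference, if among the 10 largest level differences per direction, by role, or if next to the 5 FPKM threshold. Zfp35, Zfp426, Zfp639 and Zfp949 were named after their values were seen, and Zfp965, Zfp968, Zfp973 and Zfp989 for their shared sequence. Coding sequences, biotypes and coordinates came from GENCODE M21 on GRCm38. KRAB and zinc finger patterns were searched in the translated longest coding sequence.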

Additional observations from a re-analysis of the deposited data

Results flagged for a closer look

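The test of the difference between the states set 9 Zfp genes apart, each with an adjusted p under 0.05 in limma and a difference of at least 2-fold in its ratio of chromatin to cytoplasm. The difference is EpiLC minus nESC on the log2 scale. It was 1.86 for Zfp296, 1.71 for Zfp87, 1.17 for Zfp775, 1.09 for Zfp346, which encodes a double-stranded RNA binding protein, and 1.07 for Zfp444. It was -1.10 for Zfp28, -1.14 for Zfp758, -1.20 for Zfp654 and -1.42 for Zfp820. Groups of 3 libraries were not screened for single outlying samples.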

How the results depend on the processing

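Of 3487 alternative values of 167 named results, 3361 kept their direction and their side of the threshold, 105 lost the call and 21 reversed. These values include the fits with a single library left out. Of the 167 named results, 103 stayed the same under every alternative, and the others changed under at least 1. Scaling every library to one sum moved 10 of 14 counts of calls and gave, for chromatin over cytoplasm, 1 lower member in EpiLC and 1 in nESC, for nucleoplasm over cytoplasm 1 lower in EpiLC and 0 in nESC, for chromatin over nucleoplasm 110 higher and 0 lower in EpiLC and 125 higher and 1 lower in nESC, and for the state difference 2 higher and 10 lower. For chromatin over nucleoplasm that scaling called 37.5% of all genes higher and 3.91% lower in EpiLC, and 38.6% and 7.31% in nESC. It reversed the chromatin over cytoplasm log2 folds in EpiLC of Zfp511 (0.02), Zfp706 (0.048), Zfp622 (0.29), Zfp740 (0.57), Zfp637 (0.46), Zfp64 (0.63), Zfp467 (0.64) and Zfp566 (0.72). In nESC it reversed those of Zfp622 (0.10), Zfp688 (0.20), Zfp64 (0.60), Zfp623 (0.55), Zfp706 (0.77), Zfp512 (0.85) and Zfp219 (0.90), and for nucleoplasm over cytoplasm those of Zfp511 (0.023) and Zfp688 (0.033). Correcting for exonic length and GC content, chosen after seeing the data, gave 76 members higher in EpiLC and 75 in nESC for nucleoplasm over cytoplasm, 5 lower in nESC for chromatin over nucleoplasm and 7 lower in the state difference. It reversed chromatin over cytoplasm of Zfp451 in EpiLC (-0.60) and nESC (-0.76), and of Zfp148 (-0.35) and Zfp106 (-0.0044) in nESC. The cause of these changes was not tested. With no filter the state difference called 3 higher (1.45%, against 3.45% of all genes). Without the EpiLC chromatin and cytoplasm libraries numbered 3 it called 11 higher and 2 lower (5.31% and 0.966%, against 5.58% and 5.01% of all genes).

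Leaving out 1 library at a time gave 129 to 133 higher and 9 to 11 lower for chromatin over cytoplasm in EpiLC, and 133 to 138 and 11 to 15 in nESC. For nucleoplasm over cytoplasm it gave 116 to 119 and 13 to 14 in EpiLC, and 113 to 116 and 12 to 14 in nESC. For chromatin over nucleoplasm it gave 25 to 36 and 4 to 5 in EpiLC, and 49 to 64 and 3 to 5 in nESC, where 5 came without chromatin replicate 3. The state difference ran from 4 to 9 higher, with 9 without EpiLC chromatin 3 or EpiLC cytoplasm 3. It ran from 1 to 10 lower, with 10 without EpiLC chromatin 1, 2 without EpiLC chromatin 2, EpiLC cytoplasm 3, nESC chromatin 3 or nESC cytoplasm 3, and 1 without EpiLC cytoplasm 1 or nESC cytoplasm 1. Samples with equal replicate numbers showed no clear pairing (correlations of deviations from -0.22 to 0.18). With 3 libraries per group this cannot exclude that they came from the same culture. A replicate block left the counts as they were, with 132 higher and 10 lower for chromatin over cytoplasm in EpiLC and 5 higher and 4 lower in the state difference.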
